A study of Mus musculus with 9 samples.

Results

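Interstitial cells of different kinds lie between the nerves and the smooth muscle of the colon wall, and 6 of their genes are described here in the colon of wild-type mice kept in a standard or an enriched environment. The interstitial cells of Cajal (ICC) are represented by Kit, Ano1 and Etv1, and the PDGFRA-positive cells by Pdgfra, Kcnn3 and P2ry1. The 6 genes were found by symbol in a table of 22262 counted genes, of which 22248 could be given a symbol, and all 6 had counts in each of the 9 mice. They were listed by name for the cells they mark, with earlier results of these data known.

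The animals were C57BL/6N wild-type females aged 12 months and carried no transgene. The standard environment (WT_SE) is represented by mice 1, 2, 3 and 5, which were kept in small groups in ordinary cages. The enriched environment (WT_EE) is represented by mice 1 to 5, which lived in larger groups in large cages with objects, tunnels and running wheels from weaning on. One piece of colon per mouse was flushed, frozen and sequenced whole, so that mucosa, muscle and any attached fat were measured together. In such bulk samples, fewer cells of a type and less RNA per cell cannot be told apart. The transgenic mice of the same experiment were not analysed here.

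ICC set the pace of the gut. They generate slow electrical waves that pass into the smooth muscle through gap junctions, and they relay signals from motor nerves. Kit is the receptor tyrosine kinase on which their survival depends, and its ligand is stem cell factor, encoded by Kitl. Ano1 is the calcium-activated chloride channel that carries the pacemaker current, and Etv1 is an ETS-family transcription factor that is stabilised by Kit signalling in these cells. PDGFRA-positive cells carry the purine side of inhibitory transmission. Purines released by nerves act on P2ry1, a Gq-coupled receptor, calcium is released, and the small-conductance potassium channel Kcnn3 (SK3) opens and hyperpolarises the muscle next to it. Pdgfra, the receptor for platelet-derived growth factors, gives the cells their name and is also carried by fibroblasts of the mucosa.

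On GRCm38, in the GENCODE mouse annotation, Pdgfra (ENSMUSG00000029231, chr5:75152292-75198215) and Kit (ENSMUSG00000005672, chr5:75574916-75656722) are neighbours on the plus strand of chromosome 5. They are 377 kb apart, with no protein-coding gene wholly between them. Ano1 (ENSMUSG00000031075) lies on the minus strand at chr7:144588549-144751974, and Etv1 (ENSMUSG00000004151) on the plus strand at chr12:38779380-38870484. Kcnn3 (ENSMUSG00000000794, chr3:89520164-89675132) and P2ry1 (ENSMUSG00000027765, chr3:61002795-61008982) share chromosome 3 and its plus strand. The libraries read the 3′ ends of messenger RNAs, so the counts come from the last part of each gene. Only P2ry1 overlapped another counted gene, Gm37035 on the opposite strand, which had 2 counts over all mice.

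The promoters of Kit, Ano1 and P2ry1 are shown because, of the 6 genes, these held a GC box, and not for any value measured in the mice. Each run holds the 250 bases before a RefSeq transcript start on GRCm38.p6, written 5′ to 3′ on the strand of the gene. Capitals mark GGGCGG or its complement CCGCCC, the GC box.
Kit, chr5:75574737-75574986, plus strand: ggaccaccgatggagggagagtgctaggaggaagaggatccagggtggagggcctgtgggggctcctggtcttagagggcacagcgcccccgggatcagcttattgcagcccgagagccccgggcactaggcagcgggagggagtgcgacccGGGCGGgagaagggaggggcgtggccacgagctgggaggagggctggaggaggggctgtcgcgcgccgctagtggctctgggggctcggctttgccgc
Ano1, chr7:144738574-144738823, minus strand: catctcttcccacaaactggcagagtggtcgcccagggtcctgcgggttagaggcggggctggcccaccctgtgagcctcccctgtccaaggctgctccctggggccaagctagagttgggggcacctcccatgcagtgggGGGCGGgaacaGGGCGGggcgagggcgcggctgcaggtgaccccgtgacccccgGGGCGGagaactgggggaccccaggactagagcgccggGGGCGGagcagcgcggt
P2ry1, chr3:61002535-61002784, plus strand: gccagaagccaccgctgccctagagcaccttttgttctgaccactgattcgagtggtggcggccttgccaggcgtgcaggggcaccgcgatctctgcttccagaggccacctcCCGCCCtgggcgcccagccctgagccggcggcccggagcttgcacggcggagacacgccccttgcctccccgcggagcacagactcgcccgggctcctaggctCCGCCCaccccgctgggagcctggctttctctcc
Kit held 1 GC box in this window, Ano1 held 4 and P2ry1 held 2, while Etv1, Pdgfra and Kcnn3 held none. Of all 32851 windows of this length, 32.7% held at least 1 GC box and 16.7% held at least 2. The Kit, Ano1 and P2ry1 windows contained 70.8%, 72.0% and 70.8% G and C, against a median of 52.4% over all windows. The RefSeq start used for Ano1 lies inside the longer GENCODE span given above. The GC box was searched after 2 other motifs had given no match in any window of the 6 genes. These were the ETS core CCGGAA on either strand, held by 12% of all windows, and the CArG box of smooth muscle genes, held by 1.47%.

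Each library held between 295535 and 454043 molecule counts, and 3 counts, taken as the floor of detection, corresponded to 6.61 to 10.2 CPM (counts-per-million). Levels are given as CPM after TMM normalization, a scaling of the library totals that limits the weight of the few most abundant genes. Because 1 molecule gives 1 tag at its 3′ end whatever its length, levels were compared between genes without division by length. The files of different mice were distinct, and the counts of any 2 mice of a group differed by more than sampling noise (chi-square per degree of freedom 1.17 to 2.3). The libraries of WT_SE mice 1 and 3 had a name ending that no WT_EE library had, and what this ending stands for is not given in the sources used here. Each mouse is 1 animal, so SDs and permutation p-values rest on the values of these mice. The edgeR errors and p-values also draw on the spread of all genes tested, not only on that of the gene itself. Mice shared cages within an environment, and the cage of each mouse is not given in the sources used here. Effects of a shared cage and of the environment therefore cannot be told apart, and mice of 1 cage may not be independent.

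All 6 genes were above the floor in all 9 mice. Ano1 had the highest mean over the mice, 144 CPM, followed by Kit at 126.03 CPM, P2ry1 at 79.8 CPM, Pdgfra at 55.6 CPM, Etv1 at 41.8 CPM and Kcnn3 at 30.2 CPM. Neighbours in this order were compared within mice by exact two-sided sign-flip tests on log2 levels, with Benjamini-Hochberg adjustment over the 5 pairs. Ano1 and Kit could not be ordered, since Ano1 was the higher in only 4 of 9 mice (exact p = 0.688, adjusted p = 0.688). Kit was 1.59-fold above P2ry1 and higher in 9 of 9 mice, with the smallest p that the test can give (exact p = 0.00391, adjusted p = 0.0195). The steps from P2ry1 to Pdgfra (1.46-fold, 7 of 9 mice) and from Pdgfra to Etv1 (1.39-fold, 7 of 9 mice) each had an adjusted exact p of 0.0586. Etv1 and Kcnn3 did not differ beyond their spread (1.35-fold, adjusted exact p = 0.166).

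Between the environments, none of the 6 genes passed the test across all genes. With edgeR's quasi-likelihood test and Benjamini-Hochberg adjustment their adjusted p-values lay between 0.649 and 0.992, where 7 of 17441 genes tested (0.0401%) had one under 0.05. Without adjustment 1 of the 6, Etv1, had a p under 0.05, beside 7.65% of all genes tested (1334 genes). Likewise DESeq2 and limma-voom gave 0 of the 6 an adjusted p under 0.05, and 0 and 1 of them an unadjusted one. The WT_SE and WT_EE values overlapped for each of the 6, and 2.58% of all genes tested had groups that did not overlap. The mean was higher in WT_EE for Ano1, Etv1 and Pdgfra and higher in WT_SE for Kit, Kcnn3 and P2ry1. The median log2 fold change of the 6 was 0.11, against 0.01 over all genes tested.

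**Figure D1:**
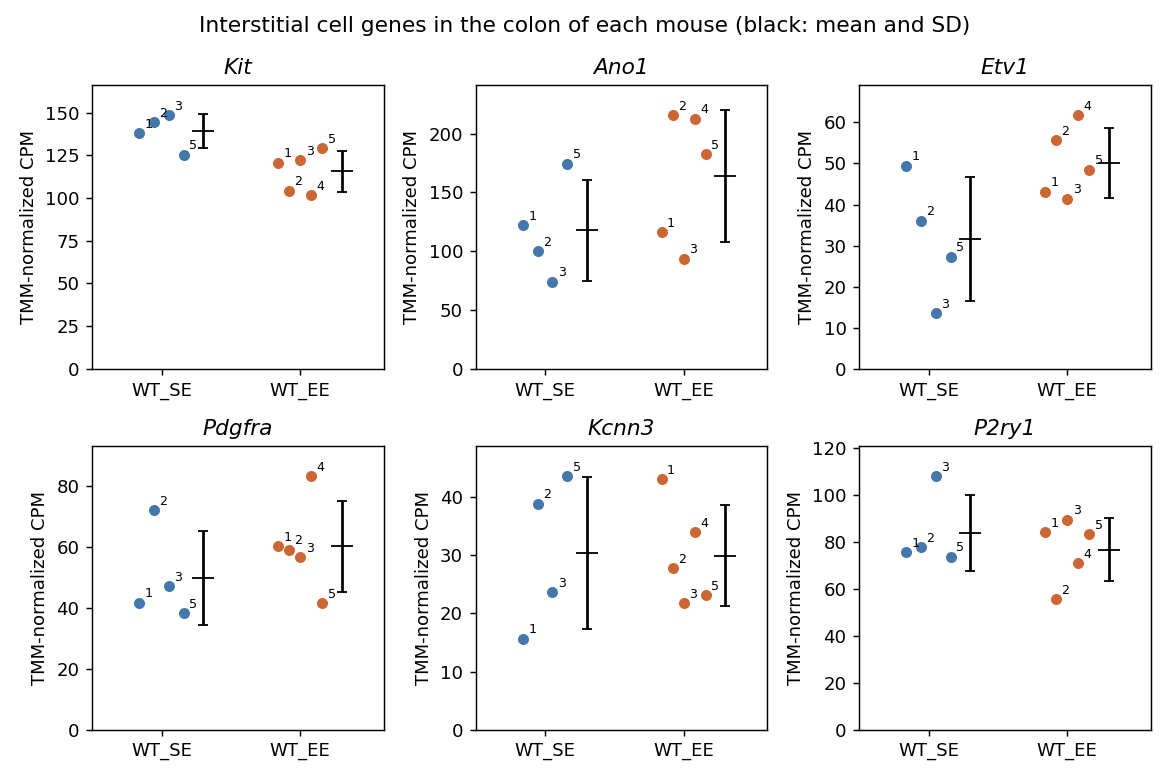
TMM-normalized CPM (y axes, from 0) of the 6 genes in each WT_SE mouse (blue, n = 4) and each WT_EE mouse (orange, n = 5), numbered by mouse, with the mean and SD in black. The groups overlap in each panel, Ano1 and Etv1 spread most widely, and WT_SE mouse 3 is lowest in Etv1 and highest in P2ry1.

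Kit, the receptor that defines ICC, was the steadiest of the 6 genes. It stood at 138, 144, 148 and 125 CPM in WT_SE mice 1, 2, 3 and 5 and at 121, 104, 122, 102 and 129 CPM in WT_EE mice 1 to 5. Every WT_EE mouse was below the median of the WT_SE mice, and WT_EE mouse 5 was above WT_SE mouse 5. WT_SE mice averaged 139 ± 10.03 CPM (mean ± SD, n = 4) and WT_EE mice 116 ± 11.97 CPM (n = 5). The edgeR estimate of log2 WT_EE over WT_SE was −0.25 ± 0.16 (SE), with a 95% interval from −0.58 to 0.08 and an adjusted p of 0.742. The unadjusted edgeR p was 0.128, while the exact two-sided permutation test of the CPM values over all ways to part the 9 mice into 4 and 5 gave an unadjusted p of 0.0238. Over all mice the highest value was 1.46 times the lowest. The coefficient of variation of 12.8% was no larger than the 14.5% that counting error alone gives at a mean of 47.3 counts.

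Ano1, the pacemaker chloride channel, varied far more than Kit. Its levels were 122, 99.9, 74.2 and 175 CPM in the 4 WT_SE mice, in order of mouse number, and 116, 216, 93.8, 213 and 182 CPM in the 5 WT_EE mice. WT_EE mice 2, 4 and 5 and WT_SE mouse 5 were high, and both groups held low mice. Averages stood at 118 ± 42.7 CPM for the 4 WT_SE mice and 164 ± 56.1 CPM for the 5 WT_EE mice (± SD). Their log2 fold change was 0.42 ± 0.21 (SE), with a 95% interval from −0.01 to 0.86 (edgeR p = 0.0564, adjusted p = 0.667, exact permutation p = 0.206). The highest value was 2.91 times the lowest, and the coefficient of variation was 37.2%, where counting error alone gives 13.8%. Leaving out WT_SE mouse 5, WT_EE mouse 1 or WT_EE mouse 3 gave log2 fold changes of 0.68, 0.54 and 0.59, with unadjusted edgeR p-values of 0.00465, 0.0172 and 0.00596 and adjusted p-values of 0.23 to 0.423. Leaving out WT_SE mouse 3, WT_EE mouse 2 or WT_EE mouse 4 gave 0.28, 0.32 and 0.32 (edgeR adjusted p = 0.956, 0.781 and 0.848), and among the libraries of the common ending it was 0.23 (adjusted p = 0.994). With the mean level of 11 smooth muscle genes as a covariate the log2 fold change was 0.065 (edgeR adjusted p = 0.963).

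Etv1, the transcription factor of ICC, had the largest fold change of the 6 and the widest range. WT_SE mice 1, 2, 3 and 5 had 49.5, 36.1, 13.5 and 27.3 CPM, from 19, 13, 4 and 10 counts. WT_EE mice 1 to 5 had 43.1, 55.6, 41.4, 61.7 and 48.5 CPM, from 20, 16, 19, 20 and 21 counts. All 5 WT_EE mice were above the WT_SE median, but WT_SE mouse 1 lay inside the WT_EE range. The WT_SE mean was 31.6 ± 15.1 CPM and the WT_EE mean 50.1 ± 8.55 CPM (± SD, n = 4 and n = 5). By edgeR the log2 fold change was 0.60 ± 0.29 (SE), and the 95% interval of the fold itself ran from 1.003 to 2.29 (edgeR p = 0.0487, adjusted p = 0.649, exact permutation p = 0.0635). This p exceeded 0.05 in 15 of 22 alternative fits. Without WT_SE mouse 3, the library with 4 counts, the log2 fold change was 0.39 (edgeR adjusted p = 0.956), the unadjusted p exceeded 0.05, and it did so too without WT_SE mouse 5 or without WT_EE mouse 2, 4 or 5. Without WT_SE mouse 1 the log2 fold change was 0.91 (adjusted p = 0.509), with an unadjusted edgeR p under 0.05.

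The 3 genes of the PDGFRA-positive cells had smaller estimated differences than Ano1 and Etv1. Pdgfra, the growth factor receptor, measured 41.7, 72.2, 47.2 and 38.2 CPM in the WT_SE mice and 60.3, 59.1, 56.7, 83.3 and 41.6 CPM in the WT_EE mice, in order of mouse number. WT_EE mouse 4 and WT_SE mouse 2 were the highest, so that each group held 1 mouse above 70 CPM. From a WT_SE mean of 49.8 ± 15.4 CPM (SD, n = 4) to a WT_EE mean of 60.2 ± 14.95 CPM (SD, n = 5), the estimate was 0.25 ± 0.25 on the log2 scale (SE, edgeR p = 0.325, adjusted p = 0.859, exact permutation p = 0.333). Its 95% interval ran from −0.26 to 0.77. It was 0.50 without WT_SE mouse 2, 0.38 without WT_EE mouse 5, 0.15 without WT_SE mouse 5, 0.13 without WT_EE mouse 4 and 0.12 among the libraries of the common ending.

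Kcnn3, the potassium channel that ends the purinergic chain, was the least abundant, with 6 to 20 counts per mouse. The WT_SE mice 1, 2, 3 and 5 gave 15.6, 38.9, 23.6 and 43.6 CPM, and the WT_EE mice 1 to 5 gave 43.1, 27.8, 21.8, 33.9 and 23.1 CPM. Each group held high and low mice, and the WT_SE values enclosed all those of WT_EE. The means of 30.4 ± 13.1 CPM in WT_SE (SD, n = 4) and 29.9 ± 8.75 CPM in WT_EE (SD, n = 5) were close, but the 95% interval of the log2 fold change of −0.03 ± 0.33 (SE) was wide, from −0.70 to 0.65 (edgeR p = 0.936, adjusted p = 0.992, exact permutation p = 0.952). Counting error alone gives a coefficient of variation of 29.7% at this depth, near the 33.5% observed, so a change of moderate size was not detectable. Among the 7 libraries of the common ending the log2 fold change was −0.45 ± 0.36 (SE, edgeR adjusted p = 0.994). These leave out WT_SE mice 1 and 3, at 15.6 and 23.6 CPM, so that ending and mouse cannot be told apart. With single mice left out the log2 fold change ran from −0.26 to 0.21. The highest value was without WT_SE mouse 5, and no such value was called.

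P2ry1, the purine receptor upstream of Kcnn3, was tightly grouped apart from 2 mice. WT_SE mice 1, 2 and 5 lay at 75.5, 77.7 and 73.6 CPM and WT_SE mouse 3 at 108 CPM. In the enriched environment mice 1 to 5 lay at 84.0, 55.6, 89.4, 71.0 and 83.1 CPM. WT_SE mouse 3 was thus the highest and WT_EE mouse 2 the lowest of the 9, and these 2 libraries were also the 2 with the fewest counts. The 4 WT_SE mice averaged 83.7 ± 16.2 CPM and the 5 WT_EE mice 76.6 ± 13.5 CPM (± SD), with a log2 fold change of −0.09 ± 0.21 (SE) and a 95% interval from −0.51 to 0.33 (edgeR p = 0.666, adjusted p = 0.958, exact permutation p = 0.524). Without WT_SE mouse 3 the log2 fold change was 0.052 (edgeR adjusted p = 0.992). The coefficient of variation of P2ry1 was 17.9%, no larger than the 18.2% that counting error alone gives at a mean of 30.1 counts.

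**Figure D2:**
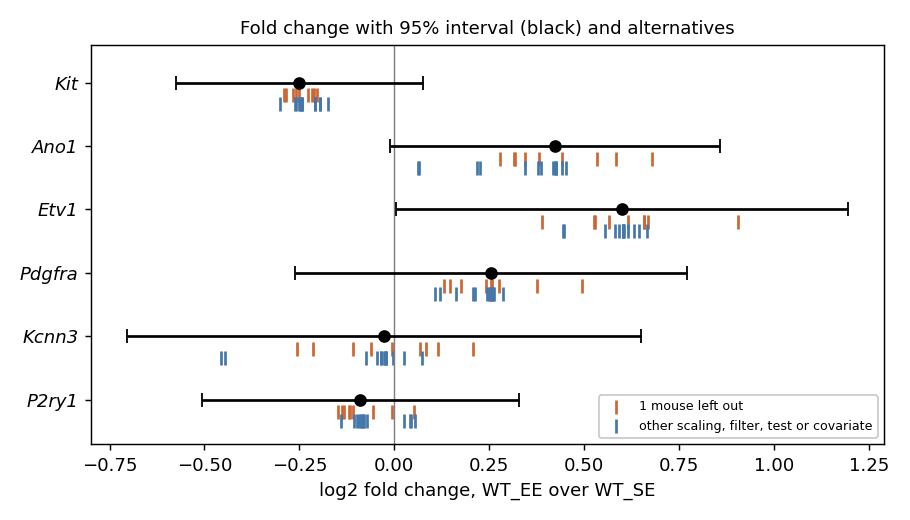
Log2 fold change of WT_EE over WT_SE (x axis) for the 6 genes, with the estimate of the edgeR fit and its 95% interval in black. Orange marks give the estimate with 1 mouse left out and blue marks that under another scaling, filter, test or covariate. The Etv1 interval starts just above 0, the others include 0, and the marks of Kcnn3 and P2ry1 lie on both sides of 0.

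Summed over Kit, Ano1 and Etv1, the ICC genes reached 310, 280, 236 and 327 CPM in the WT_SE mice and 280, 375, 257, 376 and 360 CPM in the WT_EE mice. These sums averaged 288 ± 39.9 CPM in WT_SE (SD, n = 4) against 330 ± 56.8 CPM in WT_EE (SD, n = 5), a difference of 0.19 on the log2 scale. Relative to 1000 CPM of the 11 smooth muscle genes, the ICC genes amounted to 93.3 ± 7.27 CPM in WT_SE and 90.4 ± 12.5 CPM in WT_EE. On this scale Kit was 45.7 ± 8.12 and 33.3 ± 11.1 CPM, Ano1 37.4 ± 9.42 and 43.4 ± 7.43 CPM and Etv1 10.2 ± 4.85 and 13.7 ± 1.52 CPM, so that the nearly equal sums joined members with means that differed in opposite directions. The sum over Pdgfra, Kcnn3 and P2ry1 was 164 ± 25.0 CPM in WT_SE (133, 189, 179 and 155) and 167 ± 21.4 CPM in WT_EE (187, 143, 168, 188 and 148). Both sums overlapped between the environments, and the second differed by 0.03 on the log2 scale. Relative to the same amount of smooth muscle RNA it was 54.1 ± 13.4 CPM in WT_SE and 47.5 ± 14.9 CPM in WT_EE.

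Kit and Ano1 are both listed here for ICC but did not rise and fall together over the mice. In whole pieces of colon, the cells that each transcript came from were not separated. For each molecule of Kit there were 0.887, 0.692, 0.5 and 1.39 molecules of Ano1 in WT_SE mice 1, 2, 3 and 5, and 0.964, 2.07, 0.768, 2.09 and 1.41 in WT_EE mice 1 to 5. This ratio was formed after the values of both genes had been seen and was not tested. Over the 9 mice the log2 levels of Kit and Ano1 had a Pearson r of −0.76 (exact permutation p = 0.0188) and a Spearman rho of −0.65 (exact permutation p = 0.0666). After Benjamini-Hochberg adjustment over 21 relations the 2 exact permutation p-values were 0.079 and 0.175. Without WT_EE mice 2 and 4 the r was −0.48, so that the relation rested on these mice, and within the 7 libraries of the common name ending it was −0.66.

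Of the 15 pairs among the 6 genes, only Ano1 and P2ry1 passed the adjusted test. Their r was −0.80 (exact permutation p = 0.00445, adjusted p = 0.0312) and their rho was −0.87 (exact permutation p = 0.00451, adjusted p = 0.0316). Without WT_EE mice 2 and 4 the r was −0.69, and within the 7 libraries of the common name ending it was −0.70. The spread of P2ry1 over the mice was no larger than counting error alone gives. Ano1 and Etv1, also both listed for ICC, had an r of 0.66 (exact permutation p = 0.038, adjusted p = 0.113) and a rho of 0.77 (exact permutation p = 0.0214, adjusted p = 0.112). Their r was 0.49 without WT_EE mice 2 and 4 and 0.46 within the common ending. The last ICC pair, Kit and Etv1, had an r of −0.68 (exact permutation p = 0.0381, adjusted p = 0.113) and a rho of −0.68 (exact permutation p = 0.0503, adjusted p = 0.151). Its r was −0.51 without WT_EE mice 2 and 4 and −0.71 within the common ending. Kit and P2ry1, listed for different cells, had an r of 0.68 (exact permutation p = 0.0432, adjusted p = 0.113). Their rho was 0.53 (exact permutation p = 0.1475). Etv1 and P2ry1 had an r of −0.70 (exact permutation p = 0.051, adjusted p = 0.119) and a rho of −0.63 (exact permutation p = 0.076). Within the common ending these r values were 0.59 and −0.35. The 3 genes of the PDGFRA-positive cells did not pass with one another, at r = 0.37 for Pdgfra and Kcnn3, −0.23 for Pdgfra and P2ry1 and −0.19 for Kcnn3 and P2ry1 (exact permutation p = 0.32, 0.558 and 0.641, adjusted p = 0.516, 0.725 and 0.747). The corresponding rho values were 0.25, −0.15 and −0.27 (exact permutation p = 0.521, 0.708 and 0.493). Without the 2 mice farthest from the median of the first gene of each pair the r values were 0.80, −0.26 and −0.28, so that the value for Pdgfra and Kcnn3 depended on WT_EE mouse 4 and WT_SE mouse 5. Within the common ending they were 0.12, −0.17 and −0.10. With at most 5 mice, neither environment was large enough for a correlation of its own.

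The amount of smooth muscle RNA differed between the pieces of colon, and Ano1 went with it. The mean log2 CPM of 11 smooth muscle genes, among them Myh11, Acta2 and Des, was 8.15, 7.94, 7.94 and 8.30 in WT_SE mice 1, 2, 3 and 5. In WT_EE mice 1 to 5 it was 8.01, 8.76, 7.98, 8.70 and 8.23, so that WT_EE mice 2 and 4 stood above the rest. These 6 relations between the muscle mean and the genes were added after the values had been seen and belong to the same 21. Ano1 followed the muscle mean with r = 0.90 (exact permutation p = 0.000314, adjusted p = 0.0066) and rho = 0.97 (exact permutation p = 0.000165, adjusted p = 0.00347). It did so without WT_EE mice 2 and 4 (r = 0.93) and within the common name ending (r = 0.91, n = 7).

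P2ry1 and Kit went the other way, though the spread of each over the mice was no larger than counting error alone gives. For P2ry1 the r was −0.81 (exact permutation p = 0.00191, adjusted p = 0.0201) and the rho −0.87 (exact permutation p = 0.00451, adjusted p = 0.0316), with r = −0.60 when WT_EE mice 2 and 4 were left out and −0.84 within the common name ending. For Kit the r was −0.84 (exact permutation p = 0.0064, adjusted p = 0.0336) and the rho −0.73 (exact permutation p = 0.0311, adjusted p = 0.129). The Kit relation rested on WT_EE mice 2 and 4, without which the r was −0.35, while within the common ending, which holds them, it was −0.84. Etv1, Pdgfra and Kcnn3 had r values of 0.58, 0.25 and 0.09 with the muscle mean and did not pass (exact permutation p = 0.0902, 0.508 and 0.809, adjusted p = 0.189, 0.725 and 0.875). Their rho values were 0.72, −0.03 and 0.17 (exact permutation p = 0.0369, 0.948 and 0.678), and the smallest of these became 0.129 after adjustment. Without WT_EE mice 2 and 4 the r values were 0.28 for Etv1, −0.81 for Pdgfra and 0.01 for Kcnn3, so that the sign for Pdgfra turned with these mice. Within the common ending they were 0.61, 0.16 and −0.10.

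**Figure D3:**
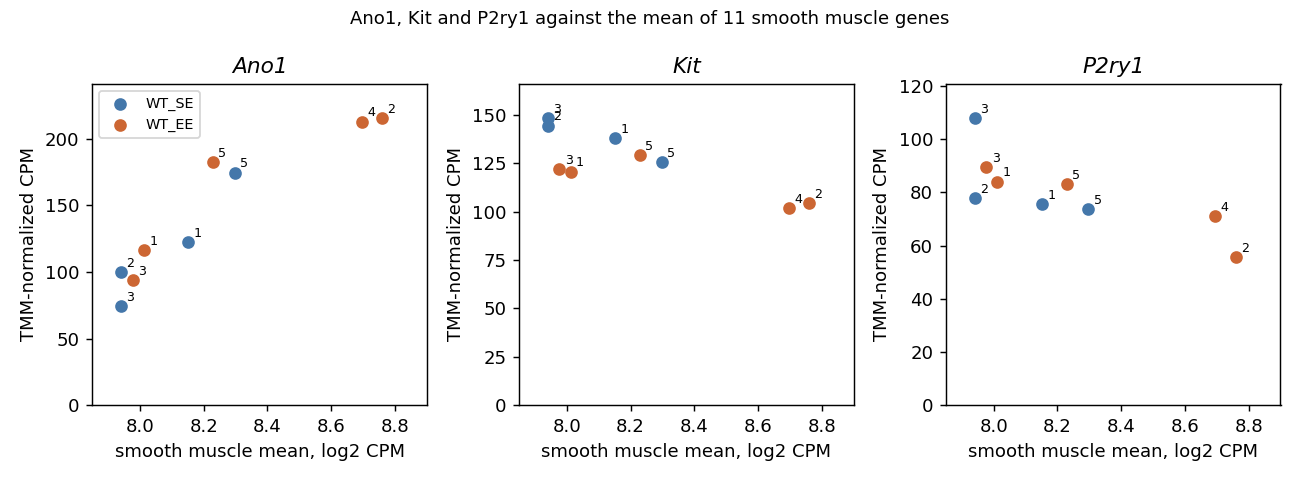
TMM-normalized CPM of Ano1, Kit and P2ry1 (y axes, from 0) against the mean log2 CPM of 11 smooth muscle genes (x axes) in the 9 mice, numbered within WT_SE (blue) and WT_EE (orange). Ano1 is higher where the muscle mean is higher, while Kit and P2ry1 are lowest in WT_EE mice 4 and 2 at the right.

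Other measures also differed between the mice. Counts did not scale evenly with library size. Summed counts grew with the library total at a log-log slope of 1.35 for 2681 genes averaging 10 to 20 counts, the range of Etv1 and Kcnn3. The slope was 1.30 for 2576 genes averaging 20 to 40 counts. It was 1.04 for 2256 genes averaging 40 to 80 counts, the range of Kit and Ano1, and 0.551 for 940 genes averaging 80 to 160 counts. The 2 smallest libraries stood at opposite ends, WT_EE mouse 2 with the highest muscle mean and WT_SE mouse 3 sharing the lowest with WT_SE mouse 2. Slc10a2, the bile acid transporter of the distal small intestine, was picked out after its values had been seen. It had 26, 103, 110 and 16 counts in WT_SE mice 1, 2, 3 and 5 and 107, 3, 117, 4 and 10 counts in WT_EE mice 1 to 5. The 4 mice with 103 to 117 counts, 2 from each environment, were the 4 with the lowest Ano1.

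Hoxb13, a homeobox gene of the hindmost gut, had 4, 0, 0 and 56 counts in WT_SE and 0, 45, 21, 24 and 20 counts in WT_EE. WT_SE mice 2 and 3 and WT_EE mouse 1, with 0 counts of Hoxb13, were among those high in Slc10a2, as was WT_EE mouse 3 with 21. Slc10a2 and Hoxb13 were both listed here as genes that differ along the colon. Whether the pieces came from different places along the colon was not tested. No correlation with Slc10a2 is given because its values fell into separate clusters. With its level as a covariate, a fit added after seeing the data, the log2 fold change of Ano1 was 0.063 (edgeR adjusted p = 0.969) and that of Etv1 was 0.45 (adjusted p = 0.81). Fat genes were highest in WT_SE mouse 1, where 6 of them summed to 823 CPM against 61.1 to 445 CPM in the other mice. With the fat mean as a covariate, also added later, Ano1 had a log2 fold change of 0.44 (edgeR adjusted p = 0.664) and Etv1 of 0.60 (adjusted p = 0.67), with Ano1 just under and Etv1 just over an unadjusted 0.05.

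**Figure D4:**
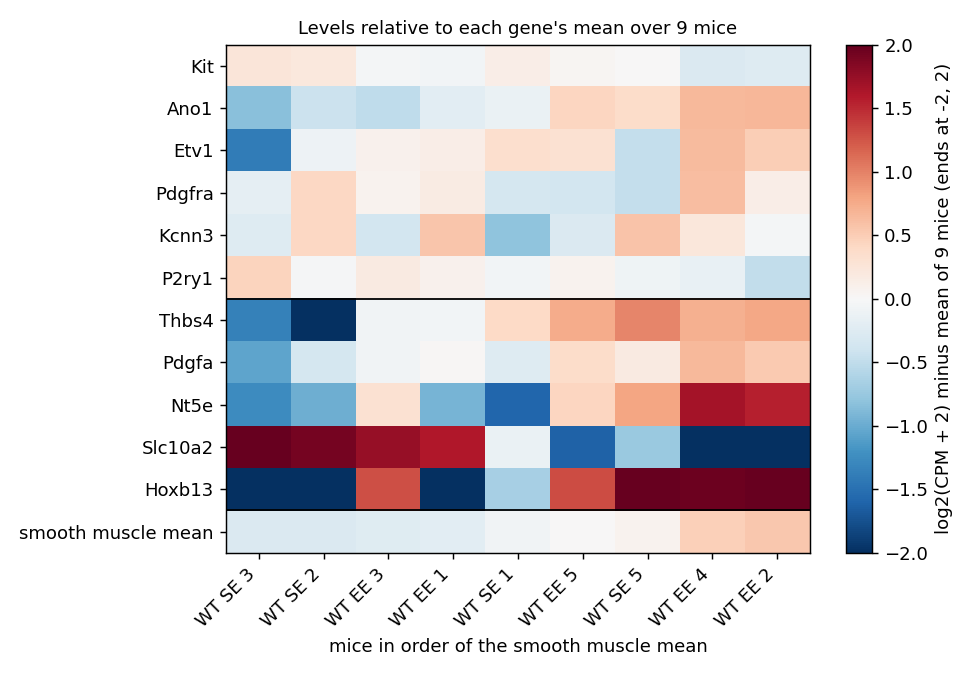
Log2 of CPM + 2 minus the mean of the 9 mice (colour, blue below and red above the mean, ending at −2 and 2) for the 6 genes, 5 further genes and the smooth muscle mean, with the mice ordered by that mean. Ano1, Thbs4, Pdgfa and Nt5e turn from blue to red from left to right, Slc10a2 turns from red to blue, and Kit and P2ry1 are palest or blue at the right.

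Of the 13 other genes listed for ICC function, all had counts and were tested, and 1, Stim1, had an unadjusted p under 0.05, a share close to the 7.65% of all genes tested. Their log2 fold changes had a median of 0.32, and none passed adjustment. Kitl, the ligand of Kit, averaged 208 ± 30.4 CPM over the WT_SE mice (SD, n = 4) and 188 ± 17.7 CPM over the WT_EE mice (SD, n = 5), a log2 fold change of −0.14 ± 0.14 (SE, edgeR adjusted p = 0.863, exact permutation p = 0.262). Stim1, the calcium sensor that refills the stores on which pacemaking draws, had 190, 158, 189 and 202 CPM in WT_SE and 134, 146, 142, 157 and 164 CPM in WT_EE. Only WT_EE mouse 5 exceeded the lowest WT_SE mouse, and the log2 fold change was −0.32 ± 0.15 (SE, edgeR p = 0.0369, adjusted p = 0.603, exact permutation p = 0.0159), with an unadjusted edgeR p over 0.05 in 8 of 22 alternatives, among them without WT_SE mouse 1, 3 or 5 and without WT_EE mouse 1 or 3. Slc12a2, the cotransporter that loads ICC with chloride but is also abundant in the epithelium, had the highest mean of the list over the 9 mice, with 330 ± 27.5 CPM in WT_SE and 286 ± 20.7 CPM in WT_EE (log2 fold change −0.21 ± 0.13, SE, edgeR p = 0.11, adjusted p = 0.742, exact permutation p = 0.0476).

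Thrombospondin 4 (Thbs4), a matrix protein on the same list, is described by its values alone because it was picked out after they had been seen. It had 107, 16.7, 30.4 and 161 CPM in WT_SE mice 1, 2, 3 and 5 and 77.5, 139, 76.3, 133 and 136 CPM in WT_EE mice 1 to 5. The 5 mice above 100 CPM were the 5 with the highest Ano1.

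Of the 14 other genes listed for PDGFRA-positive cells, all were tested, 2 had an unadjusted p under 0.05 with a higher mean in WT_EE and 1 with a lower mean, beside 7.65% of all genes tested in either direction. None passed adjustment, and the median log2 fold change was 0.28. Pdgfa, a ligand of PDGFRA, measured 130, 122, 74.2 and 177 CPM in WT_SE mice 1, 2, 3 and 5 and 159, 226, 148, 247 and 203 CPM in WT_EE mice 1 to 5. WT_SE mouse 5 alone among the WT_SE mice reached into the WT_EE range. WT_SE mice averaged 125.95 ± 42.2 CPM (SD, n = 4) and WT_EE mice 197 ± 42.3 CPM (SD, n = 5), a log2 fold change of 0.60 ± 0.18 (SE, edgeR p = 0.00237, adjusted p = 0.269, exact permutation p = 0.0476). Pdgfa passed adjustment without a filter on low counts (edgeR adjusted p = 0.0349), a fit that called 143 genes after adjustment, against 7 with the filter. Its log2 fold change was 0.37 with the library ending as a covariate, where the unadjusted p exceeded 0.05, and 0.38 with the muscle or the Slc10a2 covariate. Reads of Pdgfa may be shared with 6330403L08Rik, which overlaps it on the other strand and had 24 counts, because the strand setting of the counting is not given in the sources used here.

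The other ligands were scarce. Pdgfb had 3 to 13 counts per mouse and a log2 fold change of 0.36 ± 0.40 (SE, edgeR adjusted p = 0.886). Pdgfc had 1 to 8 counts, with 15.6 ± 4.24 CPM in WT_SE and 8.65 ± 3.60 CPM in WT_EE (log2 fold change −0.76 ± 0.49, SE, edgeR p = 0.123, adjusted p = 0.742, exact permutation p = 0.0159). Pdgfd did not exceed 3 counts in 6 of 9 mice, and no fold is read from it.

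Nt5e, the ectoenzyme that turns AMP into adenosine at the end of extracellular purine breakdown, ranged widely. Its levels were 15.6, 25.0, 20.2 and 90.0 CPM in WT_SE mice 1, 2, 3 and 5 and 25.8, 153, 63.2, 167 and 69.3 CPM in WT_EE mice 1 to 5. WT_EE mice 2 and 4 were far above the rest, and WT_SE mouse 5 stood apart from its group. The log2 fold change was 1.23 ± 0.40 (SE, edgeR p = 0.00346, adjusted p = 0.299, exact permutation p = 0.167). It was 2.15 without WT_SE mouse 5 and 1.51 without WT_EE mouse 1, where Nt5e passed adjustment (edgeR adjusted p = 0.0192 and 0.0406). Nt5e also passed without a filter on low counts (edgeR adjusted p = 0.000609). Over all genes these fits called 37, 48 and 143 after adjustment, against 7 with the filter and all mice. With the muscle covariate the log2 fold change of Nt5e was 0.49 (adjusted p = 0.739), with the Slc10a2 covariate 0.61 (adjusted p = 0.744) and among the libraries of the common ending 0.65 (adjusted p = 0.994). Plcb3, a phospholipase that can act downstream of Gq, was the one gene named here from this list whose groups did not overlap, as for 2.58% of all genes tested, at 164, 225, 280 and 150 CPM in WT_SE and 140, 143, 140, 136 and 127 CPM in WT_EE. Its log2 fold change was −0.57 ± 0.16 (SE, edgeR p = 0.00138, adjusted p = 0.214) and −0.38 without WT_SE mouse 3, called without adjustment in 22 of 22 alternatives, and the exact permutation p of 0.00794 is the smallest that 4 against 5 mice can give. Ppp1r14b overlaps Plcb3 on the other strand and had 202 counts. Gnaq, the G protein subunit through which P2ry1 signals, had the highest mean of the list over all 9 mice, with a log2 fold change of 0.20 ± 0.14 (SE, edgeR adjusted p = 0.767).

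None of the listed relatives of the 6 genes was called, and the list does not hold every paralog. Of 17 further PDGF-receptor-class kinases, ETS factors of the Etv1 subfamily, anoctamins, SK channels and P2Y receptors, 16 were tested. None had a p under 0.05 before or after adjustment with edgeR, beside 7.65% of all genes tested without adjustment. Their median log2 fold change was 0.07. P2ry4 had no count in any mouse, which is at most the floor of 3 counts per library. Ano10, a widely expressed anoctamin with the highest mean of these genes over the 9 mice, averaged 97.6 ± 12.04 CPM (SD) in WT_SE and 110 ± 34.4 CPM (SD) in WT_EE, a log2 fold change of 0.14 ± 0.20 (SE, edgeR adjusted p = 0.915).

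Cells other than ICC and PDGFRA-positive cells can carry some of these transcripts. Mast cells also carry Kit, and of 10 mast cell genes 6 had no count (Cpa3, Tpsab1, Cma1, Mcpt4, Fcer1a and Ms4a2). The 4 with counts were Tpsb2, Mcpt1, Mcpt2 and Hdc. They summed to 0 to 8.33 CPM in WT_SE and 6.95 to 24.7 CPM in WT_EE. That is at most 8 counts in a mouse, against 30 to 56 counts of Kit. How much of the Kit RNA came from ICC, mast cells or other cells was not tested. Of the 3 mast cell genes tested 1, Hdc, the histamine-forming enzyme, had an unadjusted edgeR p under 0.05 with a higher mean in WT_EE. The share over all genes tested was 7.65%, in either direction. Fibroblasts of the mucosa carry Pdgfra, and 10 of their genes summed to 1119 to 1261 CPM in WT_SE and 1083 to 1453 CPM in WT_EE. Their median log2 fold change was −0.11. None had a p under 0.05 before or after adjustment with edgeR, beside the same 7.65% of all genes tested without adjustment.

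The counts of called genes in the following lists stand beside the 7.65% of all genes tested, in either direction, that had an unadjusted p under 0.05. Smooth muscle genes had a median log2 fold change of 0.30, and 4 of 11 had an unadjusted p under 0.05 with higher means in WT_EE (Acta2, Des, Lmod1 and Smtn). They summed to 2787 to 3545 CPM in WT_SE and 2809 to 4892 CPM in WT_EE. Of 9 enteric neuron genes 2 (Ret and Nos1) had an unadjusted p under 0.05 with higher means in WT_EE, while 7 epithelial genes had a median log2 fold change of 0.00 with none called. The median log2 fold change of the neuron genes was 0.24. Of 6 endothelial genes Kdr was higher and of 6 fat genes Plin1 was lower in WT_EE at an unadjusted p under 0.05, as was Hoxd11 (lower) among 5 tested genes that differ along the colon. None of the genes in these lists passed adjustment. Apart from the muscle, Slc10a2 and fat covariates above, the part of the other cells in the differences of the 6 genes was not tested.

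The genes most like each of the 6 were sought among 8492 genes with a mean of at least 10 counts, by Pearson r of log2 CPM over the 9 mice. These values describe mice that carry differences in library size and tissue makeup into every gene, and no test was made. Picking the nearest of 8492 genes over only 9 mice gives high r values by itself. For Kit the nearest were Tmtc4 (r = 0.98), Tbrg1 (0.98) and Mrps35 (0.96). For Ano1 they were Bag2 (0.97), Hif1a (0.96), the oxygen-sensitive transcription factor, and Fnbp1 (0.95). Etv1 was nearest to Dcbld2 (0.99), Fis1 (0.98) and Nos1 (0.97), the nitric oxide synthase of inhibitory enteric neurons. Pdgfra was nearest to Gps2 (0.94), Uchl1 (0.93), an abundant neuronal protein, and Meg3 (0.92). Kcnn3 had the least close neighbours, Fam234a (0.91), Gm44695 (0.87) and Rnf145 (0.86), and P2ry1 had Cops8 (0.98), G6pdx (0.95) and Aig1 (0.95). None of the 6 genes was among the nearest of another.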

How the data were processed

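Colon RNA of 9 wild-type mice (4 WT_SE, 5 WT_EE) was sequenced with 3′ libraries carrying unique molecular identifiers. Per the labels and the submitters' processing notes, reads were trimmed with fastp 0.20.0, aligned with STAR 2.7.0f to GRCm38.p6, assigned with featureCounts 1.6.0 and collapsed with UMI-tools. The deposited values are whole-number counts of molecules per gene and mouse, not normalized. The annotation release and strand setting are not given in the sources used here.

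From the counts, 17441 of 22262 genes reached 4 CPM in 1 library or more and were kept. They were normalized by TMM and tested with edgeR 4.0.16 in R 4.3.3 (quasi-likelihood test, environment as the only term, Benjamini-Hochberg adjustment over all genes tested). The common biological coefficient of variation was 15.1%. Exact two-sided permutation tests of the 9 mice into 4 and 5 compared CPM values, and correlations used all 362880 orderings of 9 mice (log2 CPM, prior count 2). Intervals are at 95%, and the floor of 3 counts covers counting error only. Python 3.11.15, numpy 2.4.6, pandas 2.3.3, scipy 1.17.1 and matplotlib 3.10.9 were used. The edgeR step was tested on simulated counts. Gene positions came from GENCODE release M21 and promoters from RefSeq (GRCm38.p6), which matched all 6 genes.

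The 6 genes and all lists were chosen with earlier results of these data known. Genes named from the lists were the ligands, those with an unadjusted p under 0.05 and the most abundant of each list; Thbs4, Slc10a2, Hoxb13 and the fat genes were picked out after their values were seen. Alternatives were other scalings and filters, DESeq2 1.42.0, limma-voom (limma 3.58.1), a block for the mouse number, the ending of the library names, a muscle covariate and each mouse left out. The Slc10a2 and fat covariates were added after seeing the data. One marker list is not reported here.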

Additional observations from a re-analysis of the deposited data

Results flagged for a closer look

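Among 40 groups of 4 or 5 mice checked for a mouse far from the others, 3 were flagged, and chance alone flags about 1 in 20, here 2. P2ry1 stood at 108 CPM in WT_SE mouse 3, where the other WT_SE mice lay between 73.6 and 77.7 CPM. Pdgfb stood at 8.18 CPM (3 counts, the floor) in WT_SE mouse 5, below the 20.2 to 22.2 CPM of the other WT_SE mice. Nt5e stood at 90.0 CPM in WT_SE mouse 5, above the 15.6 to 25.0 CPM of the others in its group.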

How the results depend on the processing

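Kit (log2 fold change −0.29 to −0.20 with single mice left out) and Pdgfra (0.13 to 0.50) kept their direction and stayed above an unadjusted p of 0.05 in 22 of 22 alternatives, and none of the 6 genes passed adjustment in any of them. Ano1 fell under an unadjusted p of 0.05 with library totals only (log2 fold change 0.42), without a filter (0.43) and with the fat covariate (0.44), and ranged from 0.28 to 0.68 with single mice left out. Etv1 exceeded it with DESeq2 size factors (0.59), upper quartile scaling (0.56), filterByExpr (0.60), the DESeq2 test (0.61), the library ending as a covariate (0.63), the larger ending only (0.64), and the muscle (0.45), Slc10a2 (0.45) and fat (0.60) covariates, and ranged from 0.39 to 0.91 with single mice left out. Directions turned, none of them called, for Kcnn3 with limma-voom (0.026) and the fat covariate (0.072), with a range of −0.26 to 0.21 with single mice left out. They turned for P2ry1 with the ending covariate (0.042), the larger ending (0.055), muscle (0.044) and Slc10a2 (0.025), with a range of −0.15 to 0.052. Kitl turned with the ending covariate (0.038) and the larger ending (0.051), and Ano10 with muscle (−0.056), ranging from −0.036 to 0.24. Of the 6 genes, 1 had an unadjusted p under 0.05, 2 with library totals only and without a filter, 0 under the other scalings and filter, DESeq2, both ending fits, muscle and Slc10a2, and 0 to 2 with single mice left out. Over all genes, 1334 of 17441 were called without adjustment, against 804 of 8590 with filterByExpr, 643 with DESeq2, 688 with the ending covariate and 680 in the larger ending, and 7 with adjustment, against 0 to 143 under the alternatives (143 without a filter). The causes were not tested.

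The mouse numbers did not pair the mice. Deviations from the group means correlated at −0.02, 0.05, 0.11 and 0.13 for numbers 1, 2, 3 and 5 over 8490 genes, and 0 of 4 mice correlated best with their own number. With the number as a block, in the 8 mice that share one, the log2 fold changes were 0.58 for Etv1 (edgeR adjusted p = 0.775) and −0.022 for Ano10, and 0 of the 6 genes had an unadjusted p under 0.05. Over all genes the block called 1149 without and 77 with adjustment.

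At 11.3 to 52.9 mean counts per gene, counting error limits Kcnn3 and Etv1 most.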
